A study of Mus musculus with 9 samples.

Results

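The comparison set hippocampal RNA of mice fed either of 2 soybean extracts against that of mice fed the control diet. The 9 arrays comprised 6 soybean arrays, 3 from the yellow and 3 from the green extract, and 3 control arrays, assigned by their titles. Male SAMP10/TaSlc mice, an inbred senescence-accelerated strain with early brain ageing, ate CE-2 chow alone or with 3.0% of an extract, from 1 to 12 months of age. All 3 groups share the strain, the sex, the basal chow and the tissue, so the extract was the labelled difference. SMP30 appears in the titles and SAMP10 in the strain field, which was used here. The protocol describes 5 groups, each of 12 mice in cages of 6, and no label ties an array to a mouse, a pool or a cage. Cage and diet therefore cannot be told apart, and the p-values below measure the spread between these arrays, which may be technical.

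A gene was taken as separated when all 6 soybean arrays lay above, or all 6 below, all 3 controls. Of 28187 probe sets (groups of array probes read as one value) other than control-type ones, 21959 held no exact 0 on any array, and 17824 of these carried 1 gene symbol, for 16429 genes in all. All 6 soybean arrays lay above the controls on 542 probe sets (2.47%), which name 407 genes, and below them on 93 (0.424%), which name 66 genes.

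Soybean seeds carry isoflavones, plant phenols that bind oestrogen receptors, together with saponins, proteins and lipids. The hippocampus stores and retrieves memory, and its granule and pyramidal neurons switch on immediate early genes such as Junb and Fos within minutes of firing. In a whole-tissue extract, neurons, glia, vessels and any adhering membrane all contribute RNA, and fewer cells of a type and less RNA per cell cannot be told apart.

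Values are the authors' normalised scores, centred near 0 with an SD of 0.565 to 0.613 on each array. The fold change behind a score difference is not given in the sources used here, so differences are in score units. A further limit concerns 1345 of the probe sets, whose control mean is 0 in the deposited scores: these carry a difference but no level. Markers were set against the median of uncentred probe sets: of those not centred on the controls, 8 of 8 for dentate granule cells, 7 of 8 for cornu ammonis pyramidal cells and 11 of 11 for astrocytes lay above the median of 0.176, against 0 of 7 for ependyma and 0 of 3 for blood. Markers of other regions also scored above it, with 7 of 10 for thalamus and habenula, 6 of 8 for neocortex and 4 of 6 for striatum, so these counts do not single out the hippocampus.

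No probe set passed the test of soybean against control. With limma and adjustment over all 21959 probe sets, 0 (0%) reached an adjusted p below 0.05, and the smallest adjusted p was 0.768. Before adjustment 1288 had p below 0.05, where 1098 are expected by chance. Of those 1288, 1109 (5.05% of probe sets) were higher with soybean and 179 (0.815%) were lower.

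The separated probe sets were as lopsided. Of the 84 ways to choose 3 arrays of 9 as controls, 1 places them at the bottom and 1 at the top, so chance gives 1.19%, or 261 probe sets, per direction. The count above was therefore larger than 261 and the count below smaller. Over genes, each taken as the mean of its probe sets, 390 (2.37%) were above and 54 (0.329%) below, and at unadjusted p below 0.05 in limma 827 (5.03%) were higher and 101 (0.615%) lower. Centred probe sets made up 90 (16.6%) of the 542, against 6.13% of all. Their deposited p-values, from a test that is not given, were at most 0.00497, and those listed for uncentred ones at least 0.00501. Being centred thus amounts to passing a p cut of the authors, so the larger share is no independent observation.

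The lopsidedness went with a difference in the arrays as wholes. The median score over uncentred probe sets was 0.172, 0.156 and 0.17 on the 3 control arrays, 0.18, 0.187 and 0.184 on the yellow arrays and 0.216, 0.183 and 0.186 on the green arrays. Every soybean array thus lay above every control, by 0.189 against 0.166 on average, with a 2-sided exact permutation p of 0.0238, the smallest this design allows, and 0.0714 after adjustment over 6 array measures. Once these medians were aligned, 235 probe sets (1.07%) lay above and 273 (1.24%) below, and with quantile normalisation 246 and 227. Under these 2 scalings the counts stood near the 261 that chance gives. Aligned on control-type medians instead, 374 (1.7%) lay above and 118 (0.537%) below, so an excess above was left under that scaling. Medians taken over all 21959 probe sets, which the centred ones pull apart further, turned the counts round, to 134 above and 467 below.

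**Figure D1:**
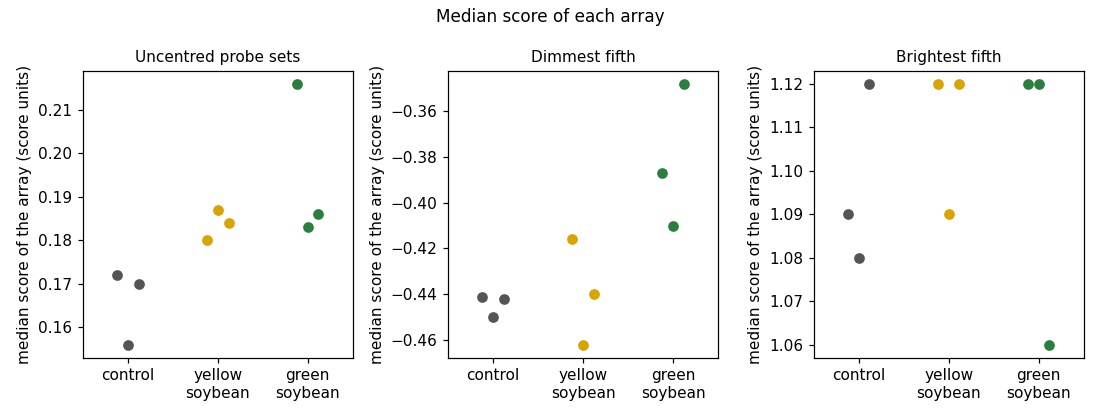
Median score of each of the 9 arrays (vertical axis, score units), one panel each for the uncentred probe sets and for their dimmest and brightest bins of 5, with a scale per panel. In the uncentred panel all 6 soybean arrays lie above the 3 controls, and in the other panels the groups overlap.

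The plot of array medians shows this offset between the groups. It was small against the SD across probe sets within an array, yet aligning it changed the counts of separated probe sets, as given above. Control-type probe sets had medians averaging 0.206 with soybean and 0.197 in the controls (exact permutation p = 0.333). In the brightest of 5 equal bins of uncentred probe sets the array medians overlapped (p = 0.571 in the same exact test), as they did in the dimmest (p = 0.167, exact). By level, the share lying above the controls was 2.6% in the dimmest bin, 4.24% in the next and 0.509% in the brightest. The share lying below was 0.485% in both the dimmest and the brightest bin. The median difference was 0.0344 in the dimmest bin and 0.00554 in the brightest. With uncentred medians aligned, a tilt by level was left: 1.82% above and 0.752% below in the second dimmest bin, and 0.194% above and 1.65% below in the brightest. The cause was not tested.

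**Figure D2:**
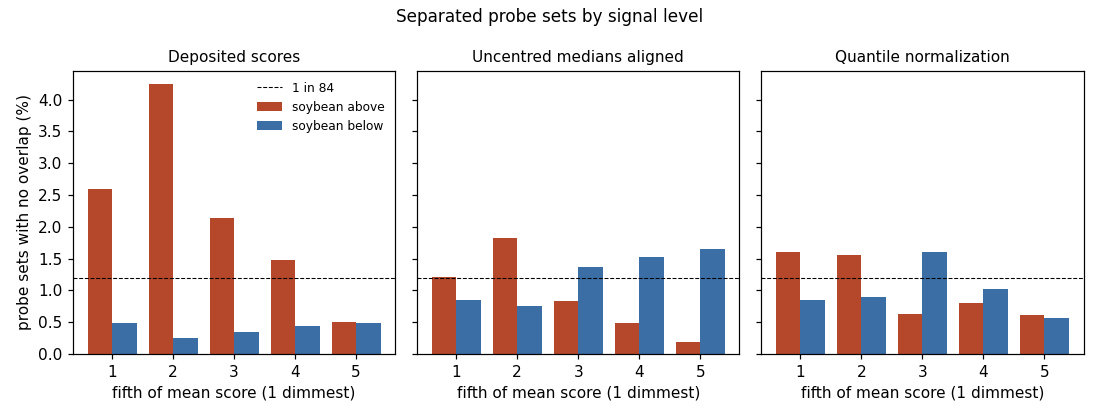
Percentage of probe sets with all soybean arrays above or all below the controls (vertical axis), by 5 bins of mean score from dimmest to brightest (horizontal axis), for the deposited scores and 2 alignments. The line marks the 1.19% chance gives per direction; the bars above the controls exceed it in the 4 dimmer bins of the deposited scores.

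The separations themselves were narrow. Among the 542 higher probe sets the median difference was 0.126 (range 0.0341 to 0.521), but the gap between the lowest soybean array and the highest control had a median of 0.0182, and reached 0.1 in 13. Among the 93 lower ones the median difference was 0.121 in size, the median gap 0.0157, and the widest 0.0853. At the edge stood Scarb1, a lipoprotein receptor, with a gap of 4.04e-05, and Pigb, a glycolipid anchor enzyme, outside with one of -4.84e-05. On the lower side Rock1, a cytoskeletal kinase, was inside with a gap of 0.000112, and Apoe, the main lipid carrier of the brain, outside with one of -0.000301.

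The genes named next are, with predicted genes (symbols such as Gm followed by digits) counted but not named, the 12 with the smallest p in each direction, those with the 5 widest gaps, and the separated members of the gene lists. The limma adjusted p of the 24 chosen by p ran from 0.768 to 0.806, so none was distinguishable from the array spread after adjustment.

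Among higher genes with a metabolic role, Fggy, a carbohydrate kinase, had the smallest p. It scored 0.12, -0.0272 and -0.0926 in the controls, 0.389, 0.191 and 0.364 with yellow and 0.335, 0.458 and 0.608 with green soybean. The lowest soybean array stood 0.0711 above the highest control, and the difference was 0.391 ± 0.071 (SE, limma adjusted p = 0.768). Its other 4 probe sets differed by -0.108 to 0.0352, so the pattern belonged to 1 of 5. Ces2g, a carboxylesterase, scored -0.713, -0.652 and -0.634 in the controls and from -0.558 to -0.386 with soybean (median -0.472), a difference of 0.196 ± 0.0473 without overlap. Fabp7, the brain fatty acid carrier of radial glia and astrocytes, differed by 0.234 ± 0.0572, with soybean arrays from 0.169 to 0.278 against a highest control of 0.146. That last separation was lost with array or uncentred medians aligned and under quantile normalisation.

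Nfu1, which delivers iron-sulphur clusters to mitochondrial enzymes, had the largest difference and the widest gap. Its separated probe set scored -0.372, -0.297 and -0.186 in the controls, 0.0548, 0.017 and -0.0106 with yellow, and 0.602, 0.736 and 0.0169 with green soybean. Soybean exceeded control by 0.521 ± 0.121 (SE, limma adjusted p = 0.768), but 2 green arrays stood far above the remaining soybean arrays. The gene's other, brighter probe set scored 0.792, 0.929 and 0.852 in the controls and 0.783 to 0.935 with soybean, a difference of -0.00605 ± 0.0493. The 2 probe sets of Nfu1 thus disagreed.

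Several higher genes encode surface and secreted proteins. Cd300c2, a receptor of myeloid cells, scored -0.28, -0.253 and -0.367 in the controls, -0.13, -0.142 and -0.112 with yellow and -0.0298, -0.00906 and -0.0203 with green soybean. The 3 diets formed 3 bands with no overlap, and the pooled difference was 0.226 ± 0.0425, the smallest SE among the 12. Ccn4, a matrix protein first known as a Wnt target, scored -0.603, -0.597 and -0.495 in the controls and between -0.422 and -0.201 with soybean (median -0.31; difference 0.258 ± 0.0514). Gkn3, a gastrokine that marks arterial endothelium in mouse brain, scored -0.628, -0.469 and -0.478 in the controls and -0.404 to -0.231 with soybean (difference 0.239 ± 0.0533). Both were low-scoring probe sets that stayed clear of the controls under the 4 other scalings compared (array medians, uncentred medians or control-type medians aligned, and quantile normalisation). Cntnap3, a neurexin-family adhesion protein, differed by 0.298 ± 0.0716 on 1 probe set and by 0.0354 to 0.105 on 5 others. Tmem217, a transmembrane protein, differed by 0.247 ± 0.0583.

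Cracr2a, which regulates calcium entry through store-operated channels, had one of the widest gaps at 0.105 and a difference of 0.236 ± 0.0586. The histone H4 gene H4c9 scored -0.301, -0.292 and -0.274 in the controls and from -0.166 to 0.1 with soybean (difference 0.231 ± 0.0524). Its gap was 0.108, beside a control SD of 0.0137. Olfr571 and Olfr1174, olfactory receptors with no settled role in the hippocampus, differed by 0.258 ± 0.0589 and 0.229 ± 0.0524. Alignment of the uncentred medians ended the separation of Olfr571 and not that of Olfr1174. Of the 12 higher genes, 10 stayed separated under that alignment and 11 under quantile normalisation.

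**Figure D3:**
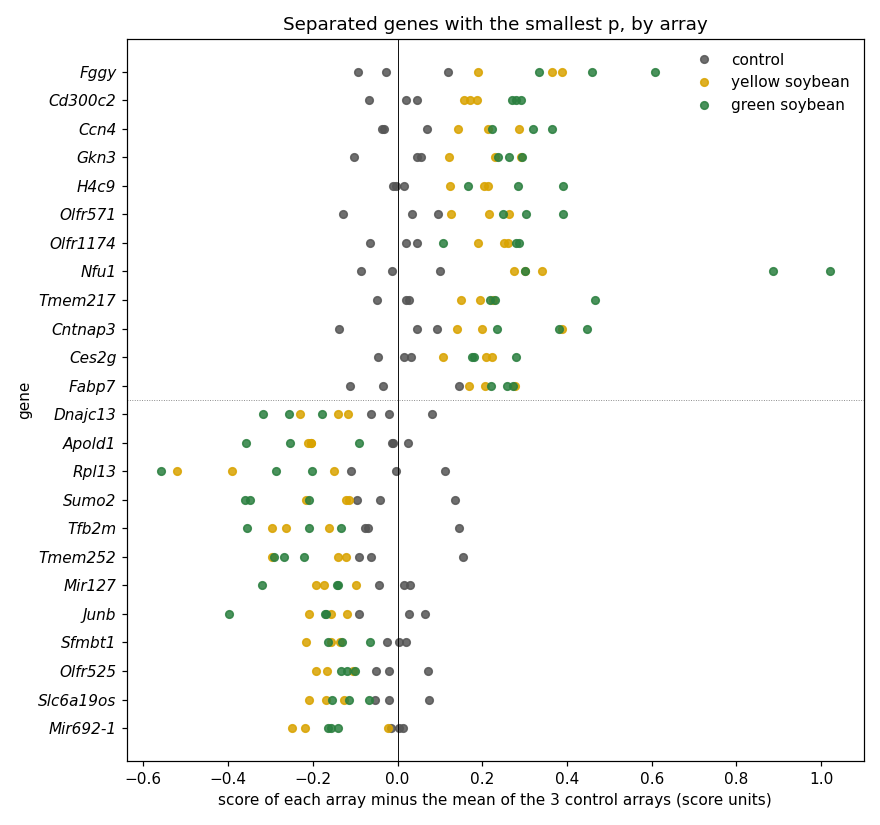
Scores of each array (horizontal axis, score units minus the control mean) for the named genes (vertical axis), with control, yellow and green arrays as separate symbols. The higher genes lie to the right of all their control points and the lower genes to the left, with several gaps no wider than a symbol.

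The plot of named genes sets the lower genes beside the higher ones. Lower with soybean was Junb, a subunit of the AP-1 transcription factor and an immediate early gene. It scored -0.0919, 0.0263 and 0.0656 in the controls, -0.12, -0.209 and -0.157 with yellow and -0.169, -0.171 and -0.399 with green soybean. The highest soybean array lay 0.0276 under the lowest control, and the difference was -0.204 ± 0.0607 (SE, limma adjusted p = 0.768). Apold1, which in the mouse is an early response gene of vascular endothelium, scored 0.319, 0.318 and 0.354 in the controls, 0.125, 0.118 and 0.126 with yellow and 0.239, -0.0266 and 0.0759 with green soybean. The controls spanned a narrow band well clear of the soybean arrays, and the difference was -0.221 ± 0.055. Both stayed separated under the same 4 scalings. For lower genes, aligning array or uncentred medians could not end a separation, since it lowers every soybean array against every control.

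Junb and Apold1 are printed because both respond early to stimulation and both promoters hold the letters TATAAA, in capitals here. One of 2 Fggy promoters in the table is set beside them, as Fggy had the smallest p; its capitals mark a match to the antioxidant response core TGACNNNGC, read on the opposite strand, and the promoter not printed holds none of the motifs searched. All are 300 bases from RefSeq on GRCm38.p6, 250 before to 50 after the start, given 5′ to 3′ on the gene's strand, at chr8:84978699-84978998 (minus), chr6:134981751-134982050 (plus) and chr4:95557257-95557556 (plus) in that order.
Junb: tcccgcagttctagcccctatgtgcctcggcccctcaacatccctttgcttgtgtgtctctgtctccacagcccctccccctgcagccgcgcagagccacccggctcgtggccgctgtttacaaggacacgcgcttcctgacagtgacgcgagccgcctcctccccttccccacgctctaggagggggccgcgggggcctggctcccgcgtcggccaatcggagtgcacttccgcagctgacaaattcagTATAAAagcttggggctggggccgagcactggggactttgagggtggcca
Apold1: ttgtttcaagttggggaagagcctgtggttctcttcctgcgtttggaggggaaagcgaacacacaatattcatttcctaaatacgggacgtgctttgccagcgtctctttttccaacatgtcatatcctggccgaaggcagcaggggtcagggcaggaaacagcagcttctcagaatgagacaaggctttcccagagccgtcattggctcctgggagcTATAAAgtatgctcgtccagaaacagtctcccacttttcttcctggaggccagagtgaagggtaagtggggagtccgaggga
Fggy: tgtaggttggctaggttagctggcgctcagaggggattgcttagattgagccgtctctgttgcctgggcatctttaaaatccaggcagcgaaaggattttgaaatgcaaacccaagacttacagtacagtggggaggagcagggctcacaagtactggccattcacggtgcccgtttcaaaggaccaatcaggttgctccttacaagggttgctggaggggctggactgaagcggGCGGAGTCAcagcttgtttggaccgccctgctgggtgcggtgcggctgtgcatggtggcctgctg
On both strands, TATAAA occurred in 8.44% of 16244 promoters of measured genes, in 10 of 57 (17.5%) promoters of lower genes and in 7.29% of the 384 of higher genes. Among the named genes it was also in the promoters of Cntnap3 and H4c9, both higher with soybean. TGACNNNGC occurred in 13.7% of all, 19.3% of lower and 12.0% of higher promoters. The AP-1 letters TGANTCA occurred in 5.78%, 7.02% and 7.03%, and the cAMP response element TGACGTCA in 2.63%, 1.75% and 4.43%. GCGNGGGCG, the EGR motif, was in 9.45%, 12.3% and 6.25%. The oestrogen response element was in 0.0246% of all and in 0 of the separated promoters. These shares are descriptions and a match is not a site of binding.

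Mir127, a microRNA gene of the imprinted Dlk1-Dio3 region, scored 0.321, 0.395 and 0.38 in the controls, 0.172, 0.192 and 0.266 with yellow and 0.224, 0.223 and 0.0447 with green soybean. All soybean arrays lay at least 0.0549 under the controls, with a difference of -0.178 ± 0.0521. Mir692-1 was lower by a thin gap, at 0.927, 0.947 and 0.957 in the controls and 0.693 to 0.921 with soybean (difference -0.159 ± 0.0529). Of 183 microRNA genes, 5 (2.73%) lay above and 2 (1.09%) below, against 2.37% and 0.329% of all genes. The 5 above were Mir211 (0.153), Mir129-1 (0.141), Mir30c-1 (0.137), Mir185 (0.101) and Mir320 (0.0901). These probe sets read the longer precursor transcripts, so the mature products were not measured. The mature sequences below, all that the RefSeq table on GRCm38.p6 held for these genes, with the seed (bases 2 to 8) in capitals, show what the lower genes and the 2 higher ones with the largest differences encode.
miR-127-5p: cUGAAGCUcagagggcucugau
miR-127-3p: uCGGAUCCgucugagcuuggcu
miR-692: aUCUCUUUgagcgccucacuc
miR-211-5p: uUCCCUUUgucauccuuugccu
miR-211-3p: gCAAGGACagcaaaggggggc
miR-129-5p: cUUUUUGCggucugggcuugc
No 2 of these printed molecules share a seed.

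Of the remaining lower genes, several have housekeeping roles and other probe sets that differed less. Rpl13, a protein of the large ribosomal subunit, scored -0.107, 0.00784 and -0.215 in the controls and -0.664 to -0.255 with soybean, a difference of -0.352 ± 0.092. Its other 6 probe sets differed by -0.0501 to -0.00665. Sumo2, a ubiquitin-like modifier, differed by -0.228 ± 0.0598 on a probe set at 1.4, 1.34 and 1.57 in the controls, while 3 brighter ones differed by 0.0268 to 0.0783. The other probe sets of Rpl13 shared the direction but not the size, and those of Sumo2 went the other way. Tfb2m, a mitochondrial transcription factor, differed by -0.237 ± 0.0656 on 1 probe set and by -0.0212 on the other. Dnajc13, an endosomal co-chaperone, differed by -0.207 ± 0.0514, and by -0.1 to 0.0279 on 14 others.

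Sfmbt1, a Polycomb-associated chromatin reader, scored 0.0202, -0.024 and 0.00383 in the controls and from -0.217 to -0.0658 with soybean (difference -0.145 ± 0.0434). Its second probe set differed by 0.00458. Tmem252 (-0.223 ± 0.0622), the olfactory receptor Olfr525 (-0.136 ± 0.0449) and the opposite-strand transcript Slc6a19os (-0.14 ± 0.0463) complete the 12. The widest gaps also brought in Bora, an activator of Aurora A kinase (-0.167 ± 0.0614), and Trpd52l3 (-0.159 ± 0.0538). Of the 12 lower genes, 11 stayed separated under quantile normalisation, where Sumo2 overlapped. All 12 did with uncentred medians aligned, an outcome fixed in advance, as that alignment lowers every soybean array against every control.

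Activity-regulated genes were the list with the lowest median. Of 22 measured, 16 were lower and 6 higher, with a median difference of -0.0848 against 0.0204 over all genes. None passed the limma test after adjustment, and before it 6 were lower at p below 0.05 against 0.615% of all genes. These were Junb, Fos (-0.165), the Egr family factor Egr2 (-0.355), the nuclear receptor Nr4a1 (-0.358), the neuronal factor Npas4 (-0.276) and the phosphatase Dusp1 (-0.32). All 6 were read on centred probe sets, the kind with the lower deposited p-values. Apart from Junb they overlapped, and in each of the 6 control array 1 was the lowest control. Nr4a1 scored -0.376 in that control against 0.216 and 0.16 in the others, with soybean arrays from -0.792 to 0.0868. Yellow array 1 stood highest of the soybean arrays for Nr4a1. The uncentred members of the list went both ways. Nptx2 (0.0892), Bdnf (0.0751), Ier2 (0.0711), Fosl2 (0.0494) and Egr3 (0.0324) were higher. Btg2 (-0.111), Jun (-0.0624), Fosb (-0.0585), Egr4 (-0.04) and Nr4a2 (-0.0302) were lower. The remaining members were centred too: Arc (-0.207), Per1 (-0.188), Egr1 (-0.13), Nr4a3 (-0.0945) and Dusp6 (-0.0752) were lower and Homer1 (0.0372) higher. The low median of the list thus rested on its centred members, and being centred amounts to passing a p cut of the authors. The list's median was -0.0226 for yellow against control and -0.131 for green against control, 2 values that share their controls.

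Glucocorticoid-responsive genes had 12 of 17 lower, median -0.0166. At unadjusted limma p below 0.05 stood Pdk4, a brake on pyruvate oxidation (-0.223), the growth factor receptor inhibitor Errfi1 (-0.158), the kinase Sgk1 (-0.151) and the mTOR inhibitor Ddit4 (-0.115). That was 4 of 17 on the lower side, against 0.615% of all genes, and Pdk4 was read on a centred probe set. None of these 4 was separated. Among synaptic genes 14 of 20 were lower (median -0.017), and 1 (5%) was separated below, against 0.329% of all genes. That was the NMDA receptor subunit Grin2b, read on a centred probe set. It scored -0.00114, 0.00124 and -0.000102 in the controls and -0.385 to -0.0143 with soybean, a difference of -0.112 ± 0.0713. Its limma adjusted p was 0.915, and green array 3 alone reached -0.385.

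Higher medians stood in several lists of cell type markers, beside a background in which 65.6% of all genes were higher with soybean. Leptomeningeal markers, from the membrane that covers the brain, had 12 of 15 higher and a median of 0.122. The list held 8 uncentred probe sets, and its other members were read on centred ones, which make up 6.13% of all. Those centred members had thus passed a p cut of the authors. Fibromodulin (Fmod, 0.232), the sulphate transporter Slc13a4 (0.212), the retinoic acid carrier Crabp2 (0.192) and the anion transporter Slc22a6 (0.127) had unadjusted limma p below 0.05, a threshold that 5.03% of all genes passed on the higher side. Of the list 0 were separated, against 2.37% of all genes above. Their summed score ran from -1.97 to 0.0115 in the controls and from -0.403 to 1.88 with soybean, and 1 of 8 uncentred members stood above the median of 0.176. Choroid plexus markers had 8 of 11 higher (median 0.0498), with summed scores of -2.61 to 0.778 in the controls and -1.74 to 3.34 with soybean. The part of adhering membrane in any gene named here was not tested.

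Microglial markers had 10 of 11 higher, with a median of 0.0745. Aif1, the calcium-binding protein known as Iba1, scored -0.304, -0.344 and -0.395 in the controls and -0.292 to -0.172 with soybean, a difference of 0.119 ± 0.0464. Its gap was 0.0114, and it overlapped under quantile normalisation and with array or control-type medians aligned. The summed microglial score was 2.22 to 3.15 in the controls and 3.08 to 3.63 with soybean. Interneuron markers had 12 of 13 higher (median 0.088) with 0 separated. Vessel markers had 8 of 11 higher and 3 lower (median 0.0597), with 1 (9.09%) separated, against 2.37% of all genes above. That one was Kcnj8, the pore of a potassium channel of pericytes, read on a centred probe set. It scored -0.041, -0.00555 and 0.0466 in the controls and 0.0999 to 0.182 with soybean. Its difference of 0.149 ± 0.0427 stayed separated under the 4 other scalings.

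Striatal markers had 2 of 7 separated, against 2.37% of all genes. Rasd2, a striatal GTPase, scored 0.565, 0.489 and 0.563 in the controls and 0.575 to 0.71 with soybean (difference 0.107 ± 0.0471). Ppp1r1b, the dopamine-regulated phosphatase inhibitor DARPP-32, differed by 0.0542 ± 0.0411. Both overlapped once uncentred medians were aligned.

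**Figure D4:**
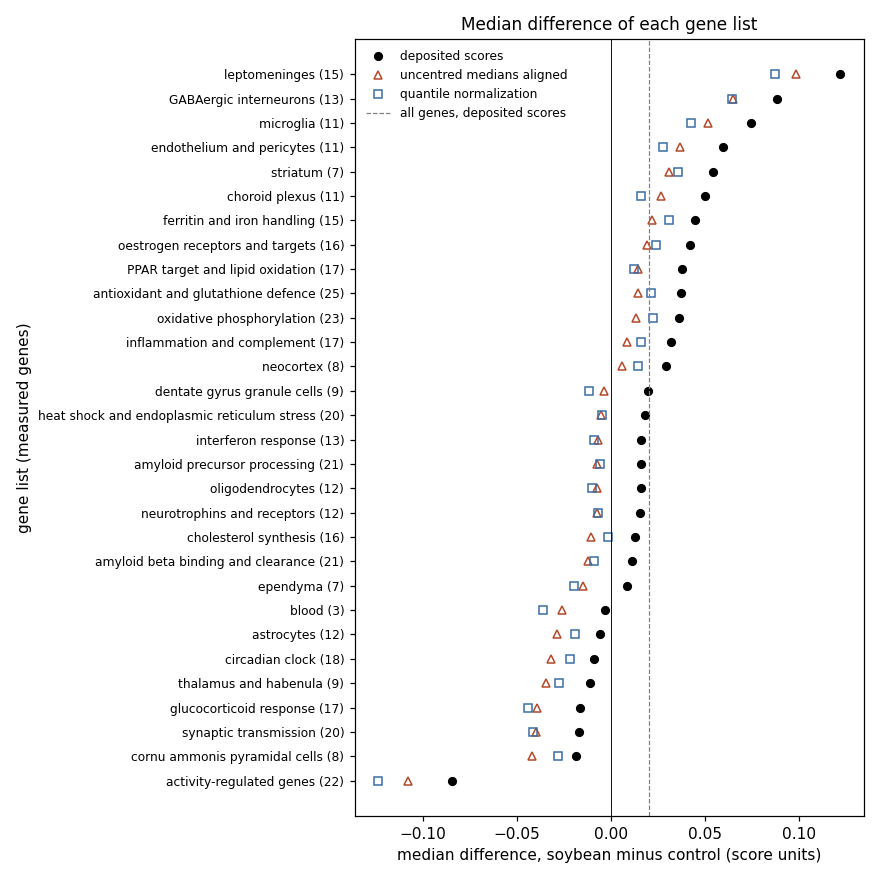
Median soybean minus control difference (horizontal axis, score units) of each gene list (vertical axis), for deposited scores, uncentred medians aligned and quantile normalisation. Activity-regulated genes lie furthest to the left and leptomeningeal markers furthest to the right under these 3 scalings.

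The plot of list medians shows which directions depended on scaling. Over the deposited scores and 4 alternatives, 6 of the 14 marker lists and 2 of the 16 pathway lists kept a median above 0, and 4 of each kept one below. The kept higher lists were leptomeninges, choroid plexus, endothelium and pericytes, microglia, GABAergic interneurons, striatum, ferritin and iron handling, and oestrogen receptors and targets. The kept lower ones were activity-regulated, glucocorticoid, synaptic and circadian genes, with pyramidal cell, astrocyte, blood and thalamic markers. Each alignment of medians moved every list down, so a median below 0 could change sign only under quantile normalisation. A kept lower sign is therefore weaker evidence of a stable direction than a kept higher one.

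In pathways tied to soybean constituents or to ageing, the separated counts were too small to be told from the 2.37% of all genes above and 0.329% below. Antioxidant genes had 20 of 25 higher, a median of 0.0374 that turned to -0.00216 with array medians aligned, and 1 separated member. That was Hmox1, which degrades haem, at -0.133, -0.116 and -0.0953 in the controls and -0.0814 to 0.0337 with soybean (difference 0.0898 ± 0.0419). Gpx1, a glutathione peroxidase, differed by 0.174 but overlapped. Oestrogen receptors and targets had 14 of 16 higher (median 0.0422) and 0 separated, led by Oxt, which encodes oxytocin (0.183), and Xbp1 (0.217), a stress response factor. Both Oxt and Xbp1 were read on centred probe sets, the kind that had passed a p cut of the authors. PPAR targets had 14 of 17 higher, and the receptor Ppara itself was separated by 0.00161 (difference 0.111 ± 0.0471). Neither Hmox1 nor Ppara stayed separated with uncentred medians aligned.

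Oxidative phosphorylation genes had 19 of 23 higher, and the separated member of that list was lower. Ndufv2, a complex I subunit, scored 1.51, 1.5 and 1.59 in the controls and 1.4 to 1.48 with soybean (difference -0.103 ± 0.0446), and it stayed separated under the 4 other scalings. Aligning array or uncentred medians could not have ended that separation, since Ndufv2 was lower with soybean. Respiratory chain subunits outside the list, picked out after their values were seen, had probe sets separated above: Ndufa8 of complex I (0.157), Uqcrq of complex III (0.138) and Atp5g2 of ATP synthase (0.198). Over the 35 complex I subunits measured, 1 (2.86%) lay above and 1 (2.86%) below, beside 2.37% and 0.329% of all genes. No such count was made for complex III or ATP synthase. Gpr151, a receptor of the habenula, differed by -0.12 with a lowest control of -0.334 and a highest soybean array of -0.337. The amyloid lists had 0 separated of 21 for precursor processing and 0 of 21 for clearance, counts that lists of this size cannot set apart from the same shares of all genes. App, the amyloid precursor, differed by -0.0315 ± 0.0534. Ptgds, a prostaglandin D synthase that also binds amyloid peptide, differed by 0.371 ± 0.143 (limma adjusted p = 0.842). It overlapped, with yellow arrays 1 and 2 at -0.11 and -0.049 beside controls of -0.0171, -0.0993 and 0.116, and the other soybean arrays from 0.401 to 0.679.

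Among gene families, collagen chains had 4 of 44 (9.09%) above and 0 below, against 2.37% and 0.329% of all genes: Col24a1 (0.139), Col13a1 (0.131), Col18a1 (0.102) and Col16a1 (0.0684). Olfactory receptors had 10 of 195 (5.13%) above and 1 (0.513%) below. The medians of these families, 0.0561 and 0.0533, kept their sign under the 4 other scalings. So did those of defensins (0.0868), keratins (0.0433) and histone genes (0.0408), while 11 families changed sign. A kept sign thus does not single out collagens or olfactory receptors. At unadjusted limma p below 0.05, 3 of 44 collagen chains and 30 of 195 olfactory receptors were higher, against 5.03% of all genes. By the mean of each gene's probe sets, cytosolic ribosomal proteins had 0 of 59 separated in either direction.

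Within the soybean arrays, green exceeded yellow on 419 of the 542 higher probe sets (77.3%), against 58% of all probe sets, and on 36 of the 93 lower ones (38.7%). No green minus yellow difference passed limma's test over all probe sets (0%). Among the higher probe sets 24 (4.43%) had an unadjusted p below 0.05 for it, against 7.1% of all. The array closest to the controls was yellow array 2 in 177 (32.7%) of the higher and 31 (33.3%) of the lower probe sets. The array farthest from the controls was green array 3 in 230 (42.4%) and 32 (34.4%). Green array 3 also correlated least with the others, at a mean of 0.958 against 0.977 to 0.981. Without it 858 probe sets lay above and 151 below, where the count that chance gives is also larger (1 in 56). Without yellow array 2 the counts were 1057 and 193.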

How the data were processed

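RNA from hippocampus was read on 9 one-colour Affymetrix arrays, 3 per diet, grouped by their titles. Per the file headers, the deposited values are SuperNORM scores, one score per probe set and array, normalised by the authors. The authors also deposited a p-value per probe set, whose test is not given in the sources used here. All 1345 probe sets with a control mean of 0 had a deposited p-value of at most 0.00497, and this was used only to describe them. Beside these, 9 value columns and 9 parameter columns matched no labelled sample and were not used. Arrays give no read depth, and 3 arrays per diet limit the precision.

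Probe sets of control type (6573) and those with an exact 0 on any array (6228) were left out. Symbols came from the platform annotation, updated through Entrez identifiers: 831 complete probe sets had several symbols and 3304 none. limma 3.58.1 in R 4.3.3 fitted a mean per diet, tested the average of both soybean means minus control, and adjusted p over all probe sets (Benjamini-Hochberg). Genes in lists are means of their probe sets. Level bins are 5 equal groups of the uncentred probe sets by mean score. Named genes, predicted genes left out, were the 12 smallest p among separated genes per direction, the 5 widest gaps, separated list members, Ptgds and App. The 30 lists and 16 families, the members and these rules were chosen with earlier results of these data known. The fit was checked on simulated data with planted differences larger than any seen here. That check does not show what the fit recovers at the sizes reported. Alternatives were other scalings, filters, weights, blocks and leaving out each array. Of 7 separated microRNA genes 6, and of 38 named genes 29, matched the RefSeq tables.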

Additional observations from a re-analysis of the deposited data

Results flagged for a closer look

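Of 44 groups of 6 soybean values examined with Dixon's test, 6 held 1 array far from the other 5. Chance alone flags about 1 in 20 groups. In 5 of them the array was green soybean replicate 3. Its Junb score was -0.399, with the other soybean arrays from -0.209 to -0.12. Its Grin2b score was -0.385 against -0.137 to -0.0143. Its Tmem217 score was 0.465 against 0.15 to 0.229. Its mean correlation with the other arrays was 0.958, where the other soybean arrays had 0.977 to 0.979, and its residual SD was 0.158 against 0.0874 to 0.101. The sixth was Gkn3 in yellow soybean replicate 3, at -0.404 against -0.295 to -0.231. The causes were not tested.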

How the results depend on the processing

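Counts of separated probe sets moved most. Above and below the controls stood 542 and 93 with the deposited scores, 117 and 48 among the brighter uncentred probe sets, 134 and 467 with array medians aligned, and 246 and 227 under quantile normalisation. Chosen after seeing the data, alignment of uncentred medians gave 235 and 273 and quantile normalisation of uncentred probe sets 212 and 199. A gap of at least 0.1 left 13 and 0. Leaving out each array in turn gave 633 to 1330 above and 127 to 393 below, where chance gives more by construction (1 in 28 without a control, 1 in 56 without a soybean array). Unadjusted p below 0.05 was reached by 251 of the brighter probe sets, 803 after quantile normalisation of uncentred ones and 1945 with array weights, against 1288.

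limma's calls went from 0 to 4 when exact zeros were kept as values. All 4 rest on those zeros, led by Gm10248 (0.706, adjusted p = 8.93e-05). Leaving out each array gave 0 to 1 calls. Without green soybean replicate 1 it was a Uqcrb probe set (0.778, limma adjusted p = 0.0196), where that array scored -0.109 and the other soybean arrays 0.904 to 1.3. Without green soybean replicate 3 it was Nfu1 (0.63, limma adjusted p = 0.00473), which was then also called for green minus yellow (0.649, limma adjusted p = 0.0283), 0 to 1 calls in all for that contrast. Leaving out each array put App between -0.0844 and 0.00532, above 0 without control replicate 2, and the second Nfu1 probe set between -0.0389 and 0.0298, above 0 without that array (0.0298), at 0.0127 without yellow soybean replicate 1 and 0.00384 without green soybean replicate 1. The causes were not tested.

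Arrays of the same number did not deviate together (correlations of -0.0817 to 0.165, 2 of 9 over 0.1). The fit with the replicate block called 0 probe sets, with a smallest limma adjusted p of 0.778 and 1121 higher and 194 lower at unadjusted p below 0.05. With the soybean arrays as 1 group the smallest limma adjusted p was 0.904.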

Other observations

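Probe sets with exact zeros were outside the comparison. On 3 of them all controls were listed at 0 and all soybean arrays scored, among them Car6, a secreted carbonic anhydrase (-0.0574 to 0.117 with soybean), and Psg23, a pregnancy-specific glycoprotein (-0.311 to 0.161). On 3 others all soybean arrays were at 0 and all controls scored, among them Gm10248, at -0.658, -0.722 and -0.738. Such zeros may be failed estimates and carry no direction.

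Among other families, defensins, antimicrobial peptides, had 17 of 19 higher and 1 separated. Zinc finger proteins had 8 of 315 (2.54%) above and 0 below, and solute carriers 9 of 297 (3.03%) above and 1 below, beside 2.37% and 0.329% of all genes.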
